A study of Homo sapiens with 6 samples.

Results

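Early response genes are genes whose transcripts rise within minutes of a growth factor or stress signal, without new protein synthesis. The 10 described here were chosen by symbol, with earlier results of these data known. Among them are the mRNA decay factors ZFP36, ZFP36L1 and ZFP36L2 and the immediate early response genes IER2, IER3 and IER5. The others are the nuclear protein CSRNP1, the pleckstrin homology-like protein PHLDA1 and the transcription factors MYC and SRF. The set makes up 10 of the 38100 genes in the deposited tables, and all 10 passed the filter on low counts that left 17720 genes for testing. The RNA came from HK2, an established cell line from the proximal tubule epithelium of a human kidney, labelled as wild type. Cells carrying a control adenovirus (AdCtrl, an empty vector in the study's methods) were compared with cells carrying an adenovirus for SIRT4 (AdSIRT4), 3 samples per group. Both groups were stimulated with TGF-β1, so the series holds no cells without TGF-β1 and none without virus, and the time between stimulation and RNA isolation was not given for these samples. The label for the cell line differs in its number from sample to sample, while every title names HK2, and HK2 was used for all of them here. The study states that n stands for technical replicates in its experiments in vitro, so the p-values here may measure only technical spread.

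The ZFP36 proteins bind AU-rich elements in the 3′ untranslated regions (UTRs) of short-lived mRNAs and bring the CCR4-NOT deadenylase to them, which shortens the poly(A) tail and starts decay. SRF binds the CArG box in the promoters of immediate early and cytoskeletal genes and acts with the ternary complex factors, which answer MAP kinase signaling, or with the myocardin-related factors, which answer actin dynamics. MYC pairs with MAX at E-boxes and is known for driving ribosome biogenesis and metabolism. Many transcripts of this kind carry AU-rich elements themselves and are short-lived.

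The promoter of SRF is shown first, because SRF is known to act on CArG boxes including those of its own gene. The RefSeq promoter table of GRCh38.p14 held 10 promoters of 7 of the genes, each covering 250 bases before to 50 bases after a start. It had no entry for ZFP36L2, IER3 or MYC. Of the 35116 promoters in the table, 1.29% held a CArG box on either strand, and among the 7 genes SRF was the one with a match. Its 2 boxes, in capitals, began 30 and 10 bases before the start of the gene at chr6:43171239-43171248 and chr6:43171259-43171268. The stretch lies at chr6:43171019-43171268 on the plus strand and overlaps no exon of the GENCODE v29 basic annotation.

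SRF promoter: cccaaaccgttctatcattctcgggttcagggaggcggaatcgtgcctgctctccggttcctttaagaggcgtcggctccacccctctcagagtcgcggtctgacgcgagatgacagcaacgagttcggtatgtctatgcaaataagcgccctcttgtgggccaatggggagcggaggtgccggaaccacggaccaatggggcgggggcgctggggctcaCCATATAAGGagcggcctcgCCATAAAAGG

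ZFP36L1 was the one gene of the 7 with a full cAMP response element (CRE, TGACGTCA), which 1.85% of all promoters held. It lay at chr14:68793461-68793468 on the minus strand and began 52 bases before the downstream of its 2 listed starts. It is shown in capitals with 10 bases on each side (chr14:68793451-68793478) because ZFP36L1 was the one gene of the set whose AdSIRT4 samples all lay below the AdCtrl samples in CPM as well as in FPKM. A link between this site and the level of ZFP36L1 was not tested.

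ZFP36L1 CRE: gtggaatgagTGACGTCAcagccgcgct

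The shorter CRE core (TGACG, which also counts each full CRE) lay in a promoter of 4 of the 7 genes (CSRNP1, SRF, ZFP36L1 and IER2) and in 24.6% of all promoters. The GC box (GGGCGG), the site of SP1, lay in those of 5 genes (CSRNP1, SRF, PHLDA1, IER2 and ZFP36) and in 45.0% of all, with 7 copies in the downstream promoter of CSRNP1. An NF-κB site was found for CSRNP1 and SRF, against 7.73% of all promoters. A TATA box (TATAAA or TATATA) was found for IER5 and SRF, against 13.7%. Neither an AP-1 site (TGACTCA or TGAGTCA, in 4.95% of all) nor an E-box (CACGTG, in 7.26%) stood in any of these windows. All motifs were searched on both strands. A gene was counted where any of its listed promoters held the motif, and the 7 genes had 10 promoters. The shares over all are per promoter, so the counts of genes and these shares are not like for like.

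The AU-rich nonamer UUAUUUAUU, the core site of the ZFP36 family, was counted in the 3′ UTRs of 19142 protein coding genes of GENCODE v29 (GRCh38), with 1 transcript per gene. It lay in 7.51% of these UTRs and in the UTRs of 7 of the 10 genes. The UTRs of the 10 genes ran from 476 to 4672 bases, and 8.56% of all UTRs in that range of lengths held the nonamer. All 3 members of the ZFP36 family carried it in their own transcripts, as did CSRNP1, SRF, PHLDA1 and IER5. IER5 carried 3 overlapping copies, and 0.627% of all UTRs held at least as many. IER3, MYC and IER2 had no nonamer. The shorter pentamer AUUUA, which lies inside the nonamer, was densest in MYC and IER3, with 8.40 and 8.14 copies per kb against a median of 1.41 over all UTRs, and absent from the UTR of IER2. The sites are shown because they are what the ZFP36 proteins are known to read, with the nonamers in capitals. They lie at chr19:39409198-39409222 (plus strand) for ZFP36, chr14:68788079-68788103 (minus) for ZFP36L1, chr2:43223450-43223474 (minus) for ZFP36L2, chr3:39142887-39142911 (minus) for CSRNP1, chr6:43179226-43179250 (plus) for SRF, chr12:76029789-76029813 (minus) for PHLDA1 and chr1:181092447-181092475 (plus) for IER5.

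ZFP36: ugacgacuUUAUUUAUUcuaauaug
ZFP36L1: cuguuggaUUAUUUAUUuuagaaau
ZFP36L2: uauuuaacUUAUUUAUUaucuugug
CSRNP1: cucuggauUUAUUUAUUuguuuuaa
SRF: ggcaccacUUAUUUAUUguugccuu
PHLDA1: auuuaugaUUAUUUAUUaguuuuuu
IER5: cuuccuUUAUUUAUUUAUUUAUUuaauua

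The libraries held 41537353 to 85684748 counts. The raw count of SIRT4, the gene carried by the virus, was 31, 47 and 57 in AdCtrl replicates 1 to 3 and 1996, 7995 and 6827 in AdSIRT4 replicates 1 to 3, in the direction of the labels. AdSIRT4 replicate 1 stood apart from the other AdSIRT4 libraries with a trend on gene length: across genes, its log2 CPM minus that of AdSIRT4 replicates 2 and 3 had Spearman correlations with length of -0.647 and -0.650, while replicate 2 minus replicate 3 gave -0.231 and the pairs of AdCtrl libraries -0.241 to -0.0974. IER3, ZFP36 and IER2 are the shortest of the set, with apparent lengths of 1.42, 2.00 and 2.42 kb as derived from the 2 deposited tables. Results are therefore given with that library, and without it or with the length trend removed. Of the epithelial markers, KRT8 was the highest at 833 ± 16.5 CPM in AdCtrl cells (SD, n = 3). CDH1 (E-cadherin) stood at 0.664 and PAX2 at 1.28 CPM, while the others ran from 39.5 (KRT19) to 338.5 CPM (KRT18). Of 15 proximal tubule markers, 10 had a mean under 1 CPM, among them LRP2, AQP1 and HNF4A. The others were GGT1 at 237, PDZK1 at 199, MIOX at 24.7, MME at 12.6 and SLC5A2 at 1.63 CPM in AdCtrl cells. Of 17 markers of other kidney and blood cells, 15 were under 1 CPM, with CD3E, MS4A1 and AQP2 among those at 0. The summed level of these 17 was 20.1 to 21.6 CPM in AdCtrl and 18.3 to 26.6 CPM in AdSIRT4 samples, most of it from LUM.

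In AdSIRT4 cells CSRNP1, IER3, MYC and SRF lay above AdCtrl cells in all samples, by 17% to 43.7% of the AdCtrl mean, and ZFP36L1 lay below in all samples, at 0.748 times the AdCtrl mean. In the other 5 genes the groups overlapped. In bulk RNA, fewer cells that express a gene and less of its RNA per cell cannot be told apart. In edgeR's quasi-likelihood test none of the 10 had an adjusted p under 0.05, where 0.0113% of all genes tested did. At an unadjusted p under 0.05 in the same test, 4 genes were higher (CSRNP1, IER3, MYC and SRF) against 4.43% of all genes, and 1 was lower (ZFP36L1) against 3.50%. CSRNP1 and ZFP36L1 also had an unadjusted p under 0.01, as 1.91% of all genes did. Groups that did not overlap were found in the same 4 and 1 genes, against 9.66% of all genes with every AdSIRT4 sample above and 9.77% with every AdSIRT4 sample below. With 3 samples against 3, the two-sided exact permutation test cannot go below p = 0.1, the value it gave for these 5 genes.

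Other tools drew the line elsewhere. DESeq2 called CSRNP1 and ZFP36L1 at an adjusted p under 0.05 (1.16% of all genes), limma on log2(FPKM + 1) called none (0.0% of all genes) and had CSRNP1, IER3 and ZFP36L1 at an unadjusted p under 0.05 (5.82% of all), and voom with sample quality weights called 7 of the 10 (8.74% of all). Without AdSIRT4 replicate 1, edgeR called CSRNP1, IER3, MYC and SRF higher (3.37% of all genes were called higher) and ZFP36L1 and IER5 lower (3.34% were called lower), and 7 of the 10 had an unadjusted p under 0.05, as 24.3% of all genes did. Without the replicates numbered 1 of both groups, it called CSRNP1 and ZFP36L1 (1.63% of all genes). With the replicate number as a block, 3 genes had an unadjusted p under 0.05 in place of 5, since MYC and SRF no longer passed (7.20% of all genes did). With the length trend removed, the same 5 genes passed as in the plain fit (13.5% of all genes), and likewise with both the trend removed and the block (13.9%).

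**Figure D1:**
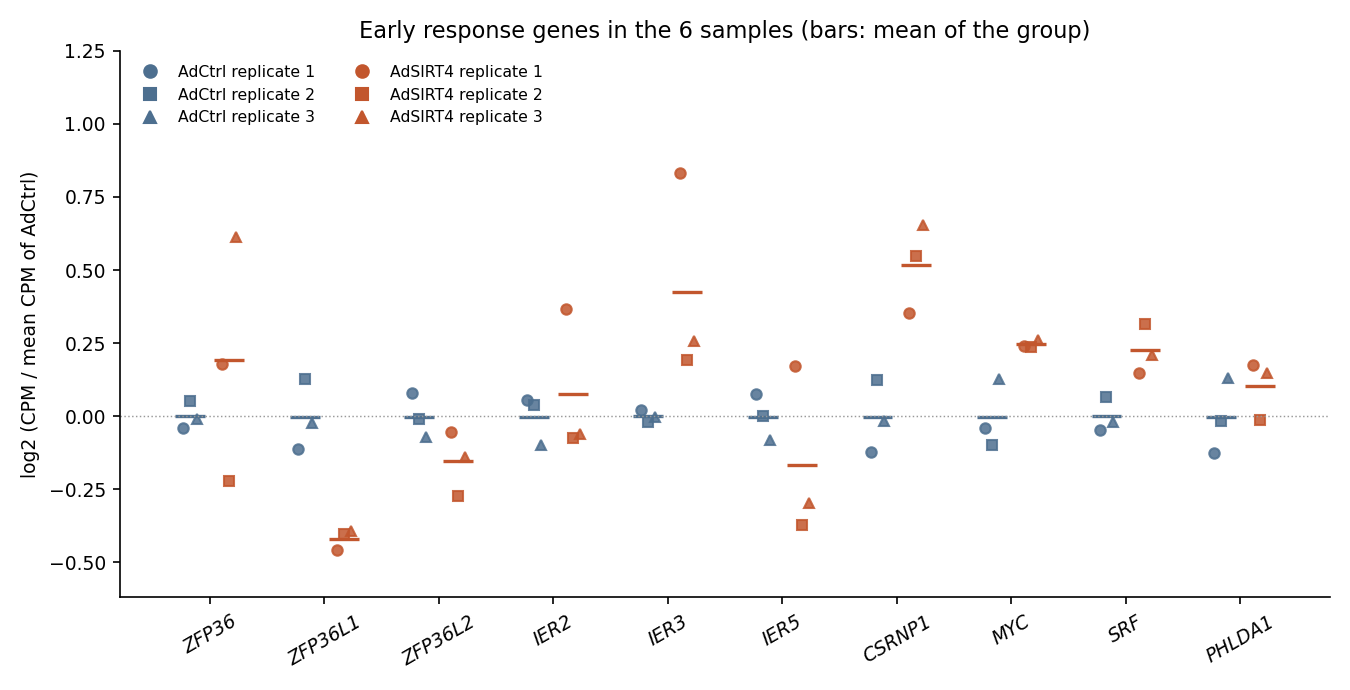
Each point is one sample; the vertical axis gives log2 of its CPM over the mean CPM of the AdCtrl group, AdCtrl in blue and AdSIRT4 in orange, and horizontal bars are the means of the plotted values in each group. The AdSIRT4 points of CSRNP1, IER3, MYC and SRF lie above all AdCtrl points, and those of ZFP36L1 lie below. AdSIRT4 replicate 1 is the highest point of IER2, IER3, IER5 and PHLDA1.

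Per length, the most abundant member of the ZFP36 family was ZFP36L1 (chromosome 14, 68787655 to 68796243), an mRNA decay factor also known for its part in the G1 phase and in blood cell development. Its level was 814, 959 and 864 CPM (counts scaled to library size) in AdCtrl replicates 1 to 3 and 640, 665 and 670 CPM in AdSIRT4 replicates 1 to 3. The lowest AdCtrl sample stood above the highest AdSIRT4 sample, and the AdSIRT4 samples lay closer together than the AdCtrl samples. The means were 879 ± 73.6 and 658 ± 16.2 CPM (SD, n = 3). AdSIRT4 differed from AdCtrl by a log2 fold change of -0.42 ± 0.116 with an edgeR adjusted p = 0.500, where the error of a log2 fold change is its standard error throughout. Over the 19 alternatives it stayed between -0.47 and -0.35, with an adjusted p from 0.00824 to 0.971 and an unadjusted p under 0.05 in all 19. Without AdSIRT4 replicate 1 it was -0.40 (adjusted p = 0.00914 from edgeR).

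ZFP36 itself, also called tristetraprolin (chromosome 19, 39406847 to 39409407), measured 8.23, 8.78 and 8.41 CPM in AdCtrl and 9.60, 7.27 and 12.96 CPM in AdSIRT4 replicates 1 to 3. Replicates 2 and 3 of the AdSIRT4 group were the lowest and the highest of all 6 samples. The coefficient of variation was 28.7% in AdSIRT4 against 3.31% in AdCtrl cells. The log2 fold change of 0.23 ± 0.208 with an edgeR adjusted p = 0.773 was no larger than the spread between replicates: it came to 0.25 without AdSIRT4 replicate 1, to 0.42 without AdSIRT4 replicate 2 and to -0.01 without AdSIRT4 replicate 3. ZFP36L2 (chromosome 2, 43222402 to 43226606), the third decay factor of the family, measured 38.7, 36.4 and 34.8 CPM in AdCtrl and 35.3, 30.3 and 33.3 CPM in AdSIRT4 cells. One AdSIRT4 sample lay within the AdCtrl range and the others below it. Its log2 fold change was -0.15 ± 0.101 with an edgeR adjusted p = 0.732, and -0.21 without AdSIRT4 replicate 1 (adjusted p = 0.1).

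Summed per length, the family reached 271 ± 17.9 FPKM in AdCtrl and 201 ± 14.6 FPKM in AdSIRT4 cells (SD, n = 3), with ranges of 251 to 286 and 185 to 213 FPKM that did not overlap. ZFP36L1 made up 93.1% to 95.6% of that sum in the 6 samples, so the family total followed it. ZFP36 made up 1.5% to 1.64% in the AdCtrl and 1.78% to 3.10% in the AdSIRT4 samples.

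Among the IER genes and CSRNP1, CSRNP1 (chromosome 3, 39141855 to 39154641), a nuclear protein first known as a gene induced by AXIN1, had the largest positive log2 fold change of the set with all 6 samples. Without AdSIRT4 replicate 2 or 3, that of IER3 was larger (0.58 against 0.52, and 0.55 against 0.46). CSRNP1 measured 19.5, 23.1 and 20.9 CPM in AdCtrl and 27.0, 30.9 and 33.3 CPM in AdSIRT4 replicates 1 to 3. The lowest AdSIRT4 sample, replicate 1, stood above the highest AdCtrl sample. The means were 21.2 ± 1.81 and 30.4 ± 3.15 CPM (SD, n = 3), for a log2 fold change of 0.52 ± 0.119 with an edgeR adjusted p = 0.494. Ranked by p among the 17720 genes tested, CSRNP1 came 104th and ZFP36L1 296th. Over the 19 alternatives the log2 fold change of CSRNP1 ran from 0.42 to 0.60, with an adjusted p from 0.00221 to 0.971 and an unadjusted p under 0.05 in all 19. It was 0.60 without AdSIRT4 replicate 1 (adjusted p = 0.00314 from edgeR).

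IER3 (chromosome 6, 30743199 to 30744547), a stress-induced regulator of cell survival, measured 162, 157 and 159 CPM in AdCtrl and 283, 182 and 190 CPM in AdSIRT4 replicates 1 to 3. Every AdSIRT4 value exceeded every AdCtrl value, and replicate 1 lay far above the other AdSIRT4 samples, at 1.52 times their mean. The log2 fold change of 0.46 ± 0.178 with an edgeR adjusted p = 0.612 fell to 0.22 without replicate 1, where the edgeR adjusted p was 0.0272 and the other AdSIRT4 samples stood at 182 and 190 CPM. With the length trend removed, the AdSIRT4 samples measured 221, 192 and 208 CPM against 160 to 167 CPM in AdCtrl, still without overlap, and the log2 fold change was 0.33. Over the 19 alternatives the adjusted p of IER3 ran from 0.0272 to 0.971, with an unadjusted p under 0.05 in 15.

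IER2 (chromosome 19, 13150411 to 13154911), a nuclear protein with a part in cell motility, measured 179, 177 and 161 CPM in AdCtrl and 222, 163 and 165 CPM in AdSIRT4 cells. Replicate 1 alone lay above the AdCtrl range and both other AdSIRT4 samples lay within it. The log2 fold change was 0.09 ± 0.144 with an edgeR adjusted p = 0.849 and turned to -0.07 without replicate 1. IER5 (chromosome 1, 181088700 to 181092900), which is known to act on the heat shock factor HSF1, showed the same library standing out, with 49.9, 47.4 and 44.8 CPM in AdCtrl and 53.4, 36.6 and 38.5 CPM in AdSIRT4 cells. AdSIRT4 replicate 1 was the highest of all 6 samples, and the other AdSIRT4 samples were the lowest. The log2 fold change was -0.15 ± 0.157 with an edgeR adjusted p = 0.793, and -0.34 without replicate 1 (adjusted p = 0.0139). The adjusted p of IER5 ran from 0.011 to 0.971 over the 19 alternatives, with an unadjusted p under 0.05 in 3.

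The apparent length of IER5, 4.82 kb, is above that of 64.8% of the genes with a length, so its high value in AdSIRT4 replicate 1 runs against the length trend of that library. At its length the fitted trend of that library was -0.13 on the log2 scale, measured against the mean of all 6 samples. IER5 deviated by 0.51 from the mean of the other AdSIRT4 samples alone. Trend and deviation thus have different references, here and below, and the share of a deviation that follows length cannot be read from them. With the length trend removed, IER5 in that library rose further to 58.4 CPM, against 35.9 and 37.2 CPM in AdSIRT4 replicates 2 and 3. For IER3 the fitted trend was 0.36 and the deviation 0.61, and for IER2 0.17 and 0.43. ZFP36, also short, had a fitted trend of 0.24 and deviated by -0.02.

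**Figure D2:**
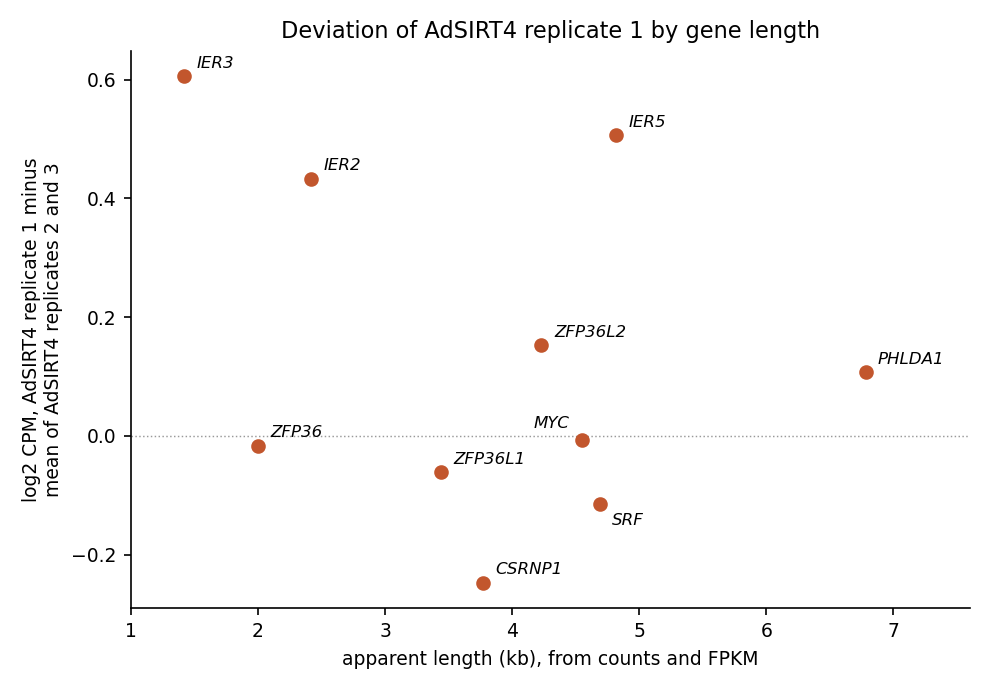
Each point is one of the 10 genes; the horizontal axis is apparent gene length in kb and the vertical axis is log2 CPM in AdSIRT4 replicate 1 minus the mean of AdSIRT4 replicates 2 and 3. IER3 (0.61), IER5 (0.51) and IER2 (0.43) lie highest, at lengths of 1.42, 4.82 and 2.42 kb, and CSRNP1 lies lowest at -0.25.

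MYC, on chromosome 8, measured 124, 119 and 139 CPM in AdCtrl and 151, 150 and 153 CPM in AdSIRT4 replicates 1 to 3. The AdSIRT4 samples lay close together, with a coefficient of variation of 0.982%, and all lay above the highest AdCtrl sample. The means were 128 ± 10.5 and 151 ± 1.49 CPM (SD, n = 3), for a log2 fold change of 0.25 ± 0.0969 with an edgeR adjusted p = 0.612. Per length the groups overlapped, since AdCtrl replicate 3 at 32.3 FPKM stood above AdSIRT4 replicate 1 at 31.2 FPKM. Over the alternatives the log2 fold change ran from 0.19 to 0.31, and without AdSIRT4 replicate 1 it was 0.24 (adjusted p = 0.0492 from edgeR). The adjusted p of MYC ran from 0.0343 to 0.971 over the 19 alternatives, with an unadjusted p under 0.05 in 9.

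SRF (chromosome 6, 43171269 to 43181506), whose promoter is printed above, measured 73.8, 79.9 and 75.2 CPM in AdCtrl and 84.6, 95.0 and 88.3 CPM in AdSIRT4 cells. The AdSIRT4 values exceeded the AdCtrl values without overlap, in CPM, in FPKM and with the length trend removed. The log2 fold change was 0.23 ± 0.0912 with an edgeR adjusted p = 0.612, ran from 0.19 to 0.29 over the alternatives, and was 0.26 without AdSIRT4 replicate 1 (adjusted p = 0.0226). Over the 19 alternatives the adjusted p of SRF ran from 0.0158 to 0.971, with an unadjusted p under 0.05 in 8. PHLDA1 (chromosome 12, 76025447 to 76031776), a pleckstrin homology-like protein with a part in apoptosis, measured 329, 354 and 393 CPM in AdCtrl and 405, 356 and 397 CPM in AdSIRT4 cells. The groups overlapped, and the log2 fold change was 0.11 ± 0.117 with an edgeR adjusted p = 0.799. PHLDA1 is the longest of the set at 6.78 kb, and with the length trend removed its value in AdSIRT4 replicate 1 became 489 CPM, against 340 and 371 CPM in replicates 2 and 3.

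**Figure D3:**
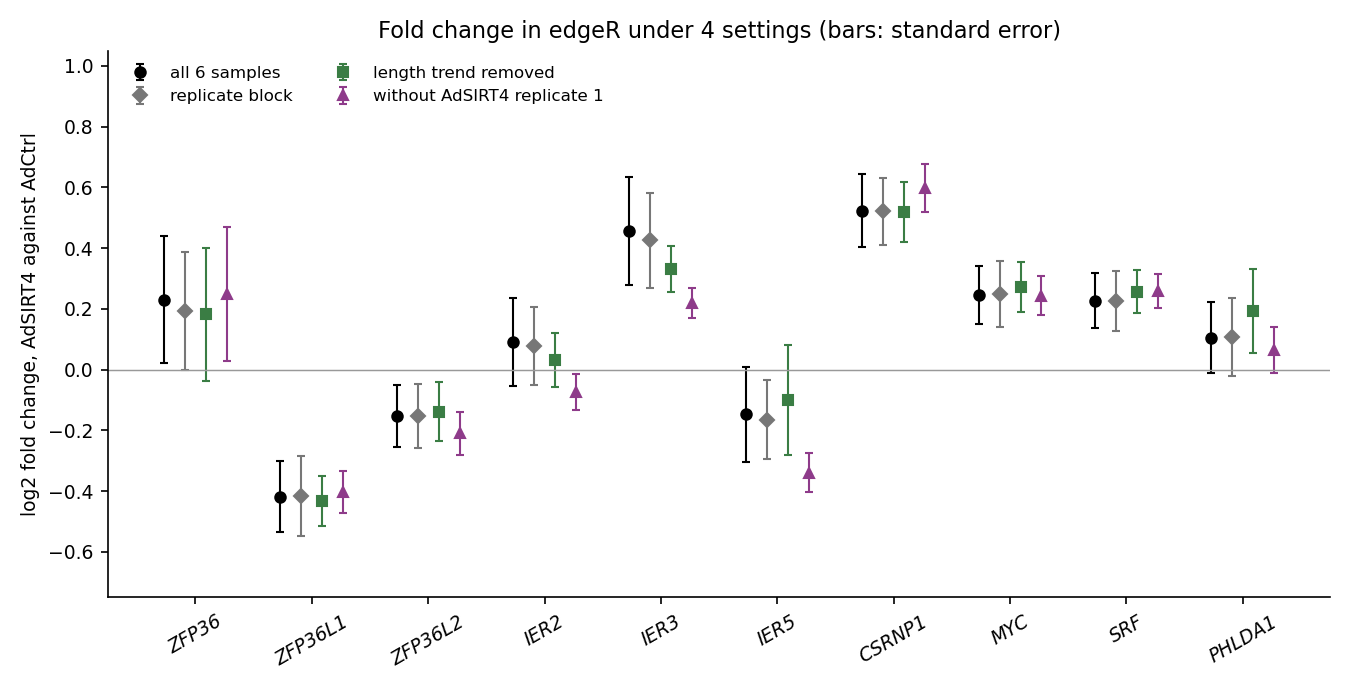
The vertical axis is the edgeR log2 fold change of AdSIRT4 against AdCtrl with its standard error, for the plain fit on all 6 samples, the fit with the replicate block, the fit with the length trend removed and the fit without AdSIRT4 replicate 1. ZFP36L1 keeps a value near -0.42 and CSRNP1 one of 0.52 or above in all 4 fits, while IER3 moves from 0.46 to 0.22 and IER5 from -0.15 to -0.34 when AdSIRT4 replicate 1 is left out.

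The levels of the genes were compared per length, in FPKM, a unit inferred from the values of the second table. In AdCtrl cells ZFP36L1 came first at 258 ± 18.2 FPKM (SD, n = 3), above 99.0% of the genes tested. It was followed by IER3 (113 ± 4.41), IER2 (71.8 ± 2.46), PHLDA1 (53.5 ± 6.21), MYC (28.6 ± 3.31), SRF (16.3 ± 0.393), IER5 (9.93 ± 0.429), ZFP36L2 (8.73 ± 0.397), CSRNP1 (5.70 ± 0.450) and ZFP36 (4.27 ± 0.131 FPKM). In AdCtrl cells the ranges of all neighbours in this order were apart. In AdSIRT4 cells 3 neighbouring pairs overlapped: ZFP36L1 with IER3 (173 to 199 against 129 to 186 FPKM), IER5 with ZFP36L2, and ZFP36L2 with CSRNP1. In the last pair the order of the means turned, with CSRNP1 at 7.97 ± 1.03 and ZFP36L2 at 7.67 ± 0.400 FPKM.

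**Figure D4:**
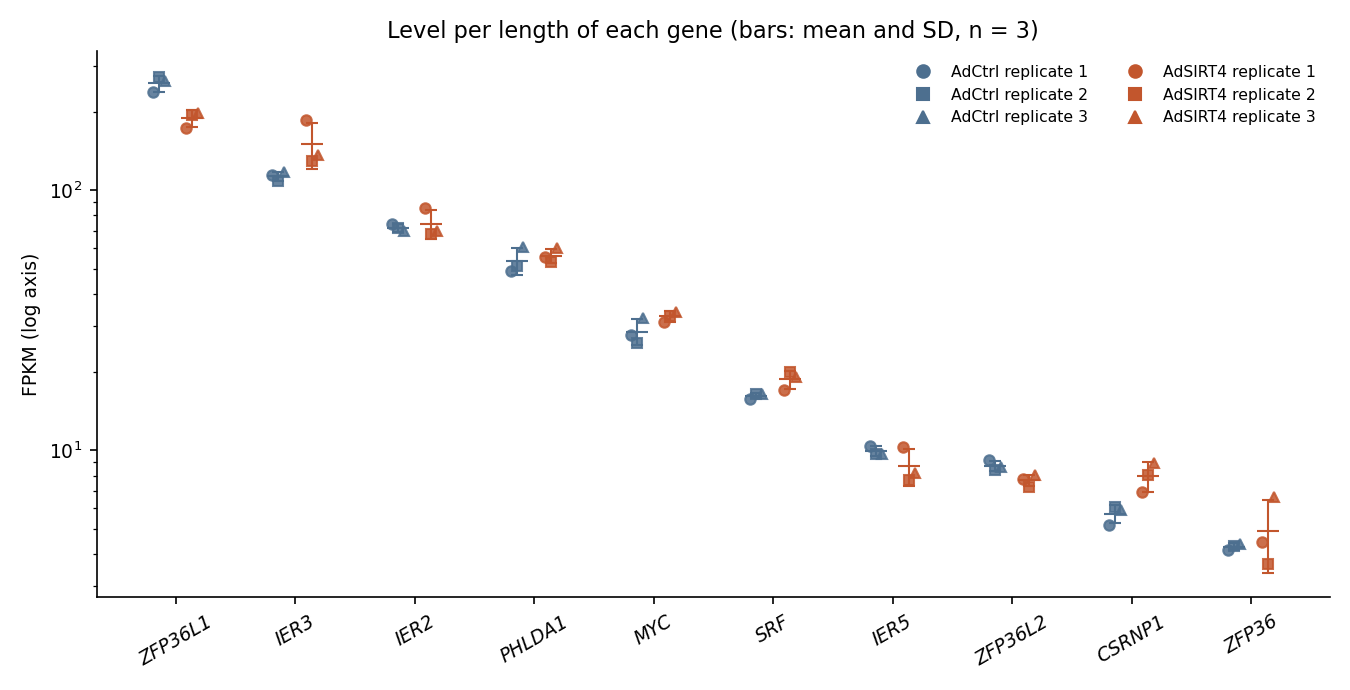
The vertical axis is FPKM on a log axis, the genes are ordered by their AdCtrl mean, points are samples, and bars are the mean and SD of 3 samples per group (AdCtrl blue, AdSIRT4 orange). ZFP36L1 leads at 258 FPKM in AdCtrl cells and ZFP36 comes last at 4.27 FPKM.

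None of the 7 relatives tested passed an adjusted p of 0.05 in edgeR, and MYCN had no count in any sample. Without AdSIRT4 replicate 1, 2 were lower past that adjusted p (3.34% of all genes were). With all samples, 1 was lower at an edgeR unadjusted p under 0.05 (3.50% of all genes were). MYCL, a paralog of MYC, measured 8.37 ± 0.698 CPM in AdCtrl and 6.01 ± 0.780 CPM in AdSIRT4 cells (SD, n = 3). Its log2 fold change was -0.48 (adjusted p = 0.519 from edgeR). In MYCL and CSRNP2 all AdSIRT4 samples lay below all AdCtrl samples, as in 9.77% of all genes. IER5L, like IER5, was lower without AdSIRT4 replicate 1 (log2 fold change -0.54, adjusted p = 0.000700) and not separated with it (-0.31, adjusted p = 0.705). CSRNP2 and CSRNP3, paralogs of CSRNP1, had log2 fold changes of -0.15 and -0.23 (adjusted p = 0.749 and 0.753). PHLDA2 and PHLDA3, paralogs of PHLDA1, had 0.37 and 0.17 (adjusted p = 0.718 and 0.773), and IER3IP1, which encodes a protein that binds IER3, had 0.17 (adjusted p = 0.782). The log2 fold changes of PHLDA2, PHLDA3 and IER3IP1 without AdSIRT4 replicate 1 were 0.09, -0.008 and -0.04, and those of CSRNP2 and CSRNP3 were -0.06 each.

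All lists described here were chosen with earlier results of these data known, so their counts are not a neutral comparison with all genes. Of 49 tested immediate early genes outside the set, 20 were higher under AdSIRT4 and 1 was lower at an edgeR unadjusted p under 0.05, where 4.43% and 3.50% of all genes were. None passed the adjusted p, against 14 higher and 3 lower without AdSIRT4 replicate 1 (3.37% and 3.34% of all genes). Their median log2 fold change was 0.24, against 0.17 for the 10 genes and 0.02 for all genes tested, and without AdSIRT4 replicate 1 it was 0.13, against 0.14 for the 10 genes. The 5 with the smallest p were all higher: HBEGF, an EGF receptor ligand (log2 fold change 0.81), the ERK phosphatase DUSP5 (0.73), the AP-1 subunit FOSB (0.73), MAFF (0.55) and the circadian repressor BHLHE40 (0.47), with adjusted p-values from 0.239 to 0.494.

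The list of mRNAs known as targets of the ZFP36 family holds IER3, MYC and some of the other immediate early genes as well. Of its 33 tested genes, 15 were higher and 2 lower at an edgeR unadjusted p under 0.05 (4.43% and 3.50% of all genes). Their median log2 fold change was 0.25. Without AdSIRT4 replicate 1 the median was 0.27, and 14 were higher and 1 lower at an adjusted p under 0.05 (3.37% and 3.34% of all genes). The 5 with the smallest p were secreted factors and all were higher. The chemokine CCL20 went from 3.75 ± 0.594 to 9.71 ± 1.46 CPM (SD, n = 3; log2 fold change 1.37, adjusted p = 0.239 from edgeR). IL6 went from 21.3 ± 3.32 to 41.4 ± 3.78 CPM (0.96, adjusted p = 0.255), and IL11 (0.94), CXCL2 (0.90) and TNF (1.01, at 0.628 and 1.27 CPM) had adjusted p-values from 0.310 to 0.494. Transcript levels alone do not separate synthesis from decay, and decay was not measured.

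Of 38 genes for the deadenylase, decapping and kinase partners, 1 was higher and 2 were lower at an edgeR unadjusted p under 0.05. Of all genes, 4.43% were higher and 3.50% lower. The median log2 fold change of the partners was -0.01. None of them passed the adjusted p with all samples. Without AdSIRT4 replicate 1, 0 were higher and 3 lower past it (3.37% and 3.34% of all genes). MAPKAPK2, the kinase that phosphorylates ZFP36, was the higher one (log2 fold change 0.29, adjusted p = 0.612 from edgeR). MAPKAPK3 (-0.31, adjusted p = 0.593) and the antiproliferative deadenylase cofactor BTG2 (-0.39, adjusted p = 0.536) were the lower ones. The 14-3-3 protein YWHAB (0.27) and the deadenylase CNOT7 (0.22) followed with adjusted p-values of 0.678 and 0.680.

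None of the 5 tested SRF cofactors had an unadjusted p under 0.05: MRTFA (-0.06), MRTFB (-0.24), ELK1 (-0.07), ELK3 (0.08) and ELK4 (0.01 on the log2 scale), with adjusted p-values from 0.789 to 0.981. All 5 lay above 0 without AdSIRT4 replicate 1, from 0.01 (MRTFB) to 0.14 (ELK4), with edgeR adjusted p-values from 0.204 to 0.919. In that fit 1 had an unadjusted p under 0.05, as 24.3% of all genes did. Of 28 tested cytoskeletal SRF targets, 4 were higher and 2 lower at an edgeR unadjusted p under 0.05 (4.43% and 3.50% of all genes). Their median log2 fold change was 0.07. Without AdSIRT4 replicate 1 all 30 genes of that list passed the filter, and the median was -0.0036. Among these, 5 were higher and 3 lower at an adjusted p under 0.05 (3.37% and 3.34% of all genes). The actin binding proteins TAGLN (0.50), TPM1 (0.48) and ZYX (0.24) were higher with adjusted p-values from 0.553 to 0.612, and LIMA1 (-0.30) and LMOD1 (-1.20, at 1.42 and 0.611 CPM) were lower with adjusted p-values of 0.571 and 0.494.

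None of the 12 MYC partners had an unadjusted p under 0.05. Without AdSIRT4 replicate 1, 1 of them was higher at an adjusted p under 0.05 in edgeR (3.37% of all genes were). MAX (0.12), the dimer partner of MYC, the MAX binding repressors MXI1 (0.18), MXD4 (0.14) and MXD1 (-0.31), and the deubiquitinase USP28 (-0.29) had adjusted p-values from 0.711 to 0.785. Of 40 MYC targets, 8 were higher and none lower at an edgeR unadjusted p under 0.05 (4.43% and 3.50% of all genes). None passed the adjusted p in edgeR. Their median log2 fold change was 0.21, and 0.09 without AdSIRT4 replicate 1. In that fit 6 were higher and none lower at an adjusted p under 0.05 (3.37% and 3.34% of all genes). LDHA, lactate dehydrogenase A (0.48), and the ribosome biogenesis genes NIP7 (0.41), GNL3 (0.40), NOP58 (0.40) and WDR43 (0.27) had the smallest p, with adjusted p-values from 0.536 to 0.594.

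The mean of the standardized log2 CPM of the 10 genes was 0.69 in AdSIRT4 replicate 1, 0.28 in replicate 3 and -0.30 in replicate 2, against -0.34 to -0.12 in the AdCtrl samples. Between pairs of the 10, the Pearson r of log2 CPM ran from -0.886 (ZFP36L1 and MYC) to 0.938 (CSRNP1 and SRF). That mean therefore does not describe each of the 10. Among 10349 other genes with a mean of at least 10 CPM, those whose log2 CPM was most like that mean over the 6 samples included ARL14EP (Pearson r = 0.988), DPH7 (0.981), SLC25A16 (0.980) and ZNF595 (0.973). In these 4 the highest value was that of AdSIRT4 replicate 1, as in ARL14EP with 14.3, 15.4 and 15.3 CPM in AdCtrl and 19.0, 14.7 and 16.6 CPM in AdSIRT4 cells. These correlations describe 6 samples, among them the library that stood apart in its length trend.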

How the data were processed

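RNA was measured in 3 AdCtrl and 3 AdSIRT4 samples of HK2 cells. Gene counts were deposited as raw whole numbers. A further table deposited by the authors covers the same genes and was taken to hold FPKM, since its values fit counts per gene length and library size. The submitters' processing notes name fastp 0.21.0, HISAT2 2.1.0, StringTie 2.1.5 and the build hg38, and whether counting used strand was not given in the sources used here. No deposited column of sample values was left unused. No replicate was a copy of another.

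Counts were compared with edgeR 4.0.16 in R 4.3.3 (filterByExpr with a minimum count of 10, TMM, robust quasi-likelihood test, Benjamini-Hochberg adjustment over all genes tested at 0.05). Alternatives were DESeq2 1.42.0, RLE normalization, other filters, the replicate block, limma 3.58.1 on log2(FPKM + 1) and log2(FPKM + 0.1), voom with sample quality weights, each sample left out, and the loess trend of each library on apparent gene length removed, with and without the block. Leaving out the replicates numbered 1 of both groups was added after seeing the data. Apparent length is the ratio of the tables and is relative. Single genes were also compared with a two-sided exact permutation test.

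The replicate numbers were checked for pairing: deviations from the group means correlated across genes with r of 0.178, 0.159 and 0.176 for samples of the same number and -0.188 to 0.0298 for the others.

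The 10 genes and all lists were chosen with earlier results of these data known. Named genes were the 10, every relative, the 5 genes of each other list with the smallest p and the 5 genes most like the mean of the 10. Some genes that meet this rule or stand in a list are not reported here. Motif searches read the RefSeq promoter table and GENCODE v29 transcripts, where the transcript was an APPRIS principal one if there was any, and then that with the longest 3′ UTR. Procedures were tested on simulated data. Tables were made with Python, pandas and scipy.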

Additional observations from a re-analysis of the deposited data

How the results depend on the processing

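Of 190 values of the 10 genes under the alternatives, 169 kept their direction and their side of an adjusted p of 0.05, 17 kept their direction and passed it, and 4 turned. The ones that turned were IER2 (-0.07 without AdSIRT4 replicate 1, where leaving out each sample gave -0.0731 to 0.173, -0.0701 in voom and -0.0409 without the replicates numbered 1 of both groups) and ZFP36 (-0.0113 to 0.421 with each sample left out). The number of the 10 genes with an adjusted p under 0.05 was 0 in edgeR (0.0113% of all genes), 2 in DESeq2 (1.16%) and 7 in voom with sample quality weights (8.74%). It was 2 without the replicates numbered 1 of both groups (1.63% of all genes). With each sample left out it was 0 to 6, 6 being the value without AdSIRT4 replicate 1 (6.71% of all genes). The number with an unadjusted p under 0.05 was 5 in edgeR (7.93% of all genes), 3 with all genes of at least 1 count (5.52%) and 3 with the replicate block (7.2%). It was 3 in limma on log2(FPKM + 1) (5.82%), log2(FPKM + 0.1) (5.74%) and log2(FPKM + 1) above a mean FPKM of 1 (7.4%). In limma on log2(FPKM + 1) with the replicate block it was 2 (5.1%). With each sample left out it was 2 to 7, where 3.7% to 24.3% of all genes passed. The value of 7 came without AdSIRT4 replicate 1 (24.3% of all genes). The block changed no adjusted call. The causes were not tested. Groups did not overlap in 5 genes in CPM, 4 above and 1 below, against 9.66% and 9.77% of all genes. The number was also 5 in FPKM (ZFP36L2 in place of MYC) and 5 with the length trend removed. The share over all genes was not counted for FPKM or with the length trend removed. The median log2 fold change of the 10 genes was 0.17, and 0.0378 in voom. Without the 50 bases after the start, 1 gene in place of 2 had a TATA box.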
